A study of Mus musculus with 6 samples.

Results

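The genes described here are 32 genes of the p53 pathway and the DNA damage checkpoint, chosen by name with earlier results of these data known. Their shares and medians below therefore describe the list and do not test it. The genes are p53 itself with its regulators, genes that p53 is known to activate, and the kinases that signal DNA damage. Relatives of known targets, such as Gadd45b, Gadd45g and Btg1, are also among them. All 32 were found among the 55401 genes of the deposited count table through their GENCODE M21 symbols, and 31 passed the low-count filter that kept 12972 genes. They were measured by RNA sequencing in RAW264.7 cells, a macrophage-like mouse line that came from a tumour induced by Abelson leukaemia virus. The labels give the genotype of every library as WT. In the control group, 3 libraries came from cells given phosphate-buffered saline (PBS), and in the treated group 3 came from cells given molybdenum disulfide (MoS2), a layered metal sulfide, at 6.25 µg/ml. All cells grew in the same serum-containing medium. For the duration of the treatment, the sources used here give nothing. Separate cultures are not stated for the replicates. The p-values therefore capture the spread among these libraries alone, and that spread may be technical.

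p53, encoded by Trp53, is a transcription factor that is kept scarce by the ubiquitin ligase Mdm2 and becomes stable when cells are stressed. Damaged DNA activates the kinases Atm and Atr, which act through Chek2 and Chek1 and modify p53, so much of the pathway runs through protein rather than RNA. Stable p53 then raises the RNA of genes that halt the cell cycle, repair DNA or start cell death, among them Mdm2 itself. Several of the genes described here, such as the Gadd45 and Btg genes, Plk2 and Plk3, are known as early response genes that other stress and inflammatory signals switch on. RNA counts do not measure p53 protein or its activity.

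Total counts ran from 15767618 to 18412762 per library. All 8 macrophage markers examined had counts in every library, and 10 markers of other cell types summed to 0.854 to 1.39 CPM in the PBS libraries and 0.730 to 1.24 CPM in the MoS2 libraries, with 3 to 7 of the 10 at 0 in a library. CPM are read counts normalised to sequencing depth, here with edgeR's TMM-scaled library sizes. The 10 most abundant genes took 5.25% to 5.64% of counts with PBS and 18.95% to 19.6% with MoS2. Scaling by library totals alone in place of TMM moved all log2 fold changes by a median of -0.77, and fold changes below are relative to the TMM scaling. Counts of bulk samples cannot tell fewer cells of a kind from less RNA per cell.

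The members did not move as one block. Of the 11 arrest and antiproliferative genes 8 were higher with MoS2, led by Gadd45b, Gadd45g, Plk2 and Cdkn1a, while Btg2 and Sesn1 were lower and Ccng2 was not called. Trp53, the damage kinases Atm, Atr and Chek2, and the damage recognition genes Ddb2 and Xpc were lower. At an adjusted p under 0.05 (edgeR's quasi-likelihood F test, Benjamini-Hochberg over all tested genes), 16 of the 31 tested members were higher and 12 lower. Over all genes tested, 80.7% passed that threshold, 38.3% higher and 42.4% lower, so passing it sets few genes apart here. With a change of at least 2-fold asked in addition, 14 members (45.2%) were higher and 4 (12.9%) lower, against 19.5% and 23.7% of all genes tested. With library totals 14 members were called higher and 16 lower, against 18% and 67.7% of all genes tested, and 8 (25.8%) were higher and 12 (38.7%) lower by at least 2-fold, against 7.08% and 45% of all genes tested. The median log2 fold change of the tested members was 0.27, against -0.08 over all tested genes, or -0.50 against -0.85 with library totals. In 28 of the 31 members no library of one group overlapped the range of the other in CPM, as in 81.9% of all tested genes.

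**Figure D1:**
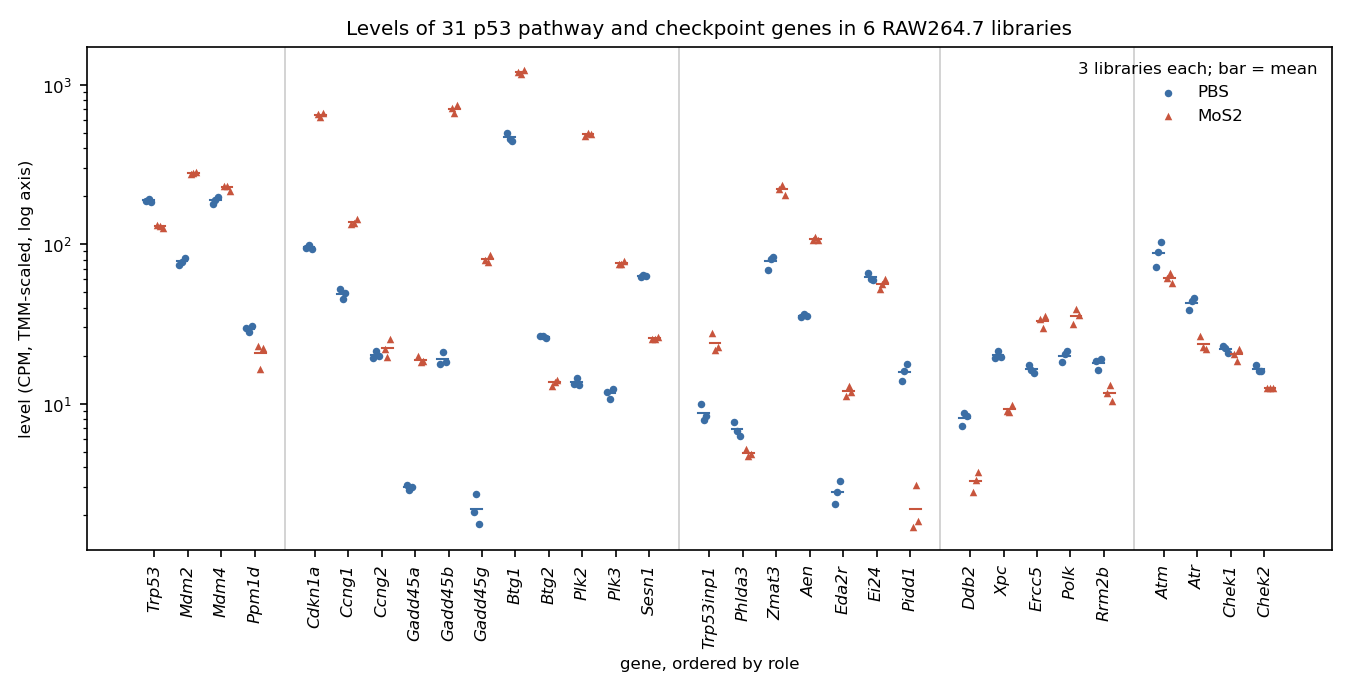
Levels of the 31 tested members in each library, in CPM on a log axis, ordered by role (p53 and its regulators, arrest genes, death-related genes, repair genes, checkpoint kinases). Circles are the 3 PBS libraries, triangles the 3 MoS2 libraries and bars the means. Ccng2, Ei24 and Chek1 are the members whose groups overlap.

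Among p53 and its direct regulators, Mdm2 rose, Trp53 and the phosphatase gene Ppm1d fell, and Mdm4 rose by less than the choice of scaling moves it. Trp53 (ENSMUSG00000059552.13, GRCm38 chromosome 11, 69580359 to 69591873) had 187, 192 and 184 CPM in the PBS libraries and 131, 130.1 and 126 CPM in the MoS2 libraries. Every MoS2 library lay below every PBS library, and the log2 fold change was -0.54 ± 0.06 (SE, edgeR adjusted p = 1.3e-06). Mdm2 (ENSMUSG00000020184.15, GRCm38 chromosome 10, 117688875 to 117710758), whose protein marks p53 for degradation and whose gene p53 activates, had 74.5, 77.1 and 82.0 CPM with PBS. With MoS2 it had 274, 281 and 284 CPM (log2 fold change 1.85 ± 0.06, edgeR adjusted p = 1.2e-11). The groups were far apart beside the spread within them.

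Mdm4, a relative of Mdm2 that holds p53 inactive, had 179, 188 and 198 CPM with PBS and 233, 232 and 216 CPM with MoS2. Its log2 fold change of 0.27 ± 0.06 passed the test (edgeR adjusted p = 0.0017) but became -0.50 with library totals, and with upper-quartile factors it was 0.14 and not called (edgeR adjusted p = 0.060). Mdm2 and Mdm4 were also compared within each library, where no scaling factor enters. The ratio of Mdm2 to Mdm4, counts per base of gene length, was 1.21, 1.19 and 1.21 with PBS and 3.43, 3.52 and 3.84 with MoS2. Every MoS2 library lay above every PBS library, by 1.58 on the log2 scale between the means. For 10 such ratios the exact two-sided permutation p was 0.1 each, the smallest that 3 against 3 libraries can give, and 0.1 after Benjamini-Hochberg adjustment. How many other pairs of genes part in this way was not computed. In CPM the groups did not overlap in 81.9% of all tested genes.

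Ppm1d, which encodes the phosphatase WIP1 that switches off p53 and the damage kinases, had 29.6, 28.1 and 30.7 CPM with PBS and 22.8, 16.5 and 22.5 CPM with MoS2. All MoS2 libraries were below the PBS libraries, with replicate 2 the lowest, and the log2 fold change was -0.51 ± 0.12 (edgeR adjusted p = 9.5e-04), ranging from -0.59 to -0.38 when single libraries were left out. Cdkn2a, whose ARF product restrains Mdm2, had 3 counts, all in PBS replicate 1, and was too low to test. Within libraries, the ratio of Mdm2 to Trp53 per length went from 0.330 ± 0.0213 to 1.73 ± 0.0667 (SD, n = 3 each), the groups not overlapping.

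The arrest and antiproliferative genes held the largest rises: 8 of 11 members rose, each by at least 2-fold, as did 19.5% of all genes tested, 2 fell, and Ccng2 was not called. Their median log2 fold change was 2.66, against -0.08 over all tested genes. The members were chosen with earlier results of these data known, so this difference describes the list. With library totals 8 were still higher, 6 of them by at least 2-fold, and 3 lower. Cdkn1a (ENSMUSG00000023067.14, GRCm38 chromosome 17, 29090976 to 29100727) encodes p21, an inhibitor of cyclin-dependent kinases and the best known p53 target. It had 95.1, 98.6 and 92.9 CPM with PBS and 652, 626 and 661 CPM with MoS2, a 6.77-fold difference (log2 fold change 2.76 ± 0.06, edgeR adjusted p = 2.4e-13). The groups did not overlap. Per length, Cdkn1a stood at 0.579 ± 0.00428 times the Trp53 count with PBS and 5.70 ± 0.250 times with MoS2 (SD, n = 3 each).

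Promoter windows of 250 bases before an annotated start were read from RefSeq (build GRCm38.p6) and searched on both strands for the letters of known binding motifs. Of the 32 members 26 had at least 1 window, 31 windows in all. Cdkn1a has 2 annotated starts, 2790 bases apart. The window of the upstream start, chr17:29090729-29090978 on the plus strand, is shown because it held the sole p53 full site among the members' windows, in capitals, 51 to 32 bases before the start.
Cdkn1a: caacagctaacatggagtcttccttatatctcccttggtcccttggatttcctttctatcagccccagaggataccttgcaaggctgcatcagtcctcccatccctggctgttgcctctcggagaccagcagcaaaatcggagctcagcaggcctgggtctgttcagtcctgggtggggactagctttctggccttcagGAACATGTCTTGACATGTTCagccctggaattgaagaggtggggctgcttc
A full site here means 2 adjoining p53 half-sites, with their cores exact and at most 1 other letter off. Of 32851 windows of this length in the table, 0.0457% held one. The window of the downstream start held neither a full site nor a half-site, and counts per gene do not tell which start was used.

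Single p53 half-sites, searched without mismatch, were in 10 of the members' 31 windows and in 7.13% of all windows. The 10 windows belonged to 10 of the 26 members. Most of these genes were listed as known p53 targets, so the share describes the list. Of these 10, 6 were called higher, 3 lower and 1 (Ei24) neither. Half-sites of 5 called members are shown, 3 that rose (Mdm2, Ccng1 and Aen) and 2 that fell (Sesn1 and Ppm1d), since the directions differ. All letters are the match.
Mdm2: GAACTTGCCT
Ccng1: GGGCAAGCCT
Aen: GGGCTTGTCC
Sesn1: AAGCTTGTTT
Ppm1d: GAGCTTGCTC
They were 186 to 177, 185 to 176, 121 to 112, 173 to 164 and 132 to 123 bases before the start, in that order. Each distance is to the start of the window that held the site. Aen and Sesn1 have another window without a half-site (chr7:78895677-78895926 and chr10:41810324-41810573). Their sites were in chr7:78895808-78896057 and chr10:41887189-41887438. Members with a half-site thus changed in both directions.

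The other motifs searched were TGACGTCA (the cyclic AMP response element), CACGTG (an E-box), TGACTCA (the AP-1 site), TGACGCAA (an ATF site), CCAAT, the kB site, the E2F site (TTTCCCGC, or TTTCGCGC, or TTTGCCGC, or TTTGGCGC) and the CArG box. The AP-1 site was in the window of Mdm4 alone and in 4.46% of all windows, and the kB site, bound by NF-kB, was in that of Atr alone and in 7.25%. The E2F site, known from genes of dividing cells, was in the window of Chek2 and in 1.86% of all windows. TGACGCAA (0.438% of windows) and the CArG box (1.47%) were in no member's window. CCAAT, a common promoter element, was in 17 of the members' 31 windows and in 33.8% of all windows. The 17 windows belonged to 15 members, 9 called higher and 6 lower.

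The Gadd45 genes encode small stress proteins that bind PCNA and stress kinases and slow the cell cycle, and all 3 rose. Gadd45b (ENSMUSG00000015312.9, GRCm38 chromosome 10, 80930073 to 80932204) had 17.7, 21.2 and 18.3 CPM with PBS and 708, 663 and 745 CPM with MoS2. That is a 37.0-fold difference (log2 fold change 5.21 ± 0.09, edgeR adjusted p = 1.4e-14), with no overlap. Gadd45g (ENSMUSG00000021453.2, GRCm38 chromosome 13, 51846678 to 51848468) started lower, at 2.08, 2.69 and 1.75 CPM, and reached 79.7, 77.0 and 85.8 CPM. Its log2 fold change was also 5.21 (± 0.12, edgeR adjusted p = 3.6e-13), and 4.62 with each library's trend on gene length removed.

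Gadd45a, the member of the family most tied to p53, rose less: 3.08, 2.87 and 3.01 CPM with PBS against 19.9, 18.2 and 18.5 CPM with MoS2 (log2 fold change 2.66 ± 0.13, edgeR adjusted p = 4.0e-10). Within libraries, the ratio of Gadd45b to Gadd45a per length was 6.36, 8.21 and 6.76 with PBS and 39.6, 40.4 and 44.7 with MoS2. The ratio of Gadd45g to Gadd45a went from 1.10 ± 0.279 to 6.45 ± 0.480 (SD, n = 3 each). Neither ratio overlapped between the groups, and the means differed by 2.55 and 2.58 on the log2 scale. Gadd45b became the most abundant member per length with MoS2, at 800.2 ± 12.3 TPM (counts scaled by gene length and library total), ahead of Btg1 at 410.0 ± 7.15 TPM and Cdkn1a at 328 ± 7.84 TPM. With PBS the order was Btg1 (377 ± 18.04 TPM), Trp53 (197 ± 3.41 TPM) and Cdkn1a (114 ± 2.40 TPM), and Gadd45b had 50.97 ± 4.87 TPM.

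The windows of Gadd45b (chr10:80929841-80930090, plus strand) and Gadd45g (chr13:51846425-51846674, plus strand), the members with the largest fold changes, are shown with the letters CACGTG in capitals. CACGTG reads the same on both strands and is known as an E-box.
Gadd45b: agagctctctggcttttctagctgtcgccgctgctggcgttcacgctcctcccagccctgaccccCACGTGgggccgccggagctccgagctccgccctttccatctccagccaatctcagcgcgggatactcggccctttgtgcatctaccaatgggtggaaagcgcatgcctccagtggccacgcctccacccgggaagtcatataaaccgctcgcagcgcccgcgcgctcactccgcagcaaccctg
Gadd45g: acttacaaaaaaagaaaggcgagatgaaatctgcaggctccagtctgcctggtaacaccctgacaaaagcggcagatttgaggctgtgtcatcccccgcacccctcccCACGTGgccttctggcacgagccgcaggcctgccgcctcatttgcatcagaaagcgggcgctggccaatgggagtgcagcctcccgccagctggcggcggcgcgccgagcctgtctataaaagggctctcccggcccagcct
The match began 185 bases before the start of Gadd45b and 142 bases before that of Gadd45g. Among the members' windows these letters were otherwise found only in that of Aen, and 6.02% of all windows of the table held them. These letters were added to the search after both sequences had been seen.

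Plk2 and Plk3 encode polo-like kinases that are induced by p53 and by growth and stress signals. Plk2 (ENSMUSG00000021701.8, GRCm38 chromosome 13, 110395046 to 110400844) had 13.4, 14.4 and 13.1 CPM with PBS and 477, 497 and 487 CPM with MoS2, a 35.7-fold difference (log2 fold change 5.16 ± 0.07, edgeR adjusted p = 3.0e-15). Plk3 had 11.9, 10.7 and 12.3 CPM with PBS and 74.6, 75.3 and 78.6 CPM with MoS2 (log2 fold change 2.71 ± 0.08, edgeR adjusted p = 4.4e-12). Both genes rose without overlap. In CPM, Plk2 was above Plk3 in every library of both groups, and their order reversed only after division by the deposited gene length. Per length Plk2 stood below Plk3 in each PBS library, at ratios of 0.634, 0.758 and 0.603, and above it in each MoS2 library, at 3.60, 3.72 and 3.50. Exon bases shared with a gene on the other strand were few or hardly counted here: Plk3 shares 84 with Tctex1d4 (68 counts over all libraries), Cdkn1a 273 with AC167363.2 (103 counts) and Gadd45a 337 with E230016M11Rik (91 counts).

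Btg1 and Btg2, antiproliferative adaptors of the mRNA deadenylation machinery, moved in opposite directions. Btg1 had 501, 457 and 446 CPM with PBS and 1197, 1164 and 1237 CPM with MoS2 (log2 fold change 1.36 ± 0.06, edgeR adjusted p = 2.1e-10). Btg2, the one known as a p53 target, had 26.6, 26.4 and 25.8 CPM with PBS and 12.9, 13.6 and 14.1 CPM with MoS2 (log2 fold change -0.95 ± 0.09, edgeR adjusted p = 4.6e-07). The directions were the same under every scaling tried. The ratio of Btg2 to Btg1 per length went from 0.108 ± 0.00521 to 0.0218 ± 0.000876 (SD, n = 3 each), a log2 change of -2.32.

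Plk2 and Btg2, a riser and a faller, share the cyclic AMP response element letters TGACGTCA in their windows, in capitals below (chr13:110394794-110395043, plus strand, and chr1:134079156-134079405, minus strand).
Plk2: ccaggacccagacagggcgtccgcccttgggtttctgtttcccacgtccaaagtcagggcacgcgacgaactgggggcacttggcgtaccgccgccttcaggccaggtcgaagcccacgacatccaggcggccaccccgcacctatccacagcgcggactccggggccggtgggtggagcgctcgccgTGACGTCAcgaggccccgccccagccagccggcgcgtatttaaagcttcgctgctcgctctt
Btg2: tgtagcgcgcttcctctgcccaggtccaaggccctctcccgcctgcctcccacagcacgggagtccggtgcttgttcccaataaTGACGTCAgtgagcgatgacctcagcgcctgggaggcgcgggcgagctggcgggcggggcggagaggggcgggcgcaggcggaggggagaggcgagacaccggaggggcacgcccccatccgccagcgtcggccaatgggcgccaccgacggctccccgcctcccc
The element began 62 bases before the start of Plk2 and 166 bases before that of Btg2. It reads the same on both strands. Of all windows, 1.55% held it, and among the members only that of Ppm1d did besides, which also fell. It is shown, out of the motifs searched, because it occurs in members that changed in opposite directions.

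The cyclin G genes and Sesn1 complete the arrest genes. Ccng1, a p53 target that recruits a phosphatase to Mdm2, had 52.5, 45.2 and 49.3 CPM with PBS and 133, 135 and 144 CPM with MoS2 (log2 fold change 1.49 ± 0.07, edgeR adjusted p = 3.2e-10). Ccng2 had 19.2, 21.3 and 20 CPM with PBS and 22.0, 19.5 and 25.3 CPM with MoS2, overlapping groups that did not pass the test (log2 fold change 0.15 ± 0.11, edgeR adjusted p = 0.22). Ccng2 was -0.63 and called lower with library totals, and 0.44 and called higher with the length trend removed. The ratio of Ccng1 to Ccng2 per length went from 3.79 ± 0.473 to 9.64 ± 0.971 (SD, n = 3 each). Sesn1, a stress sensor that restrains growth signalling by mTORC1, went the other way, from 61.7, 63.6 and 63.0 CPM to 25.6, 25.4 and 26.0 CPM (log2 fold change -1.29 ± 0.07, edgeR adjusted p = 1.3e-09).

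**Figure D2:**
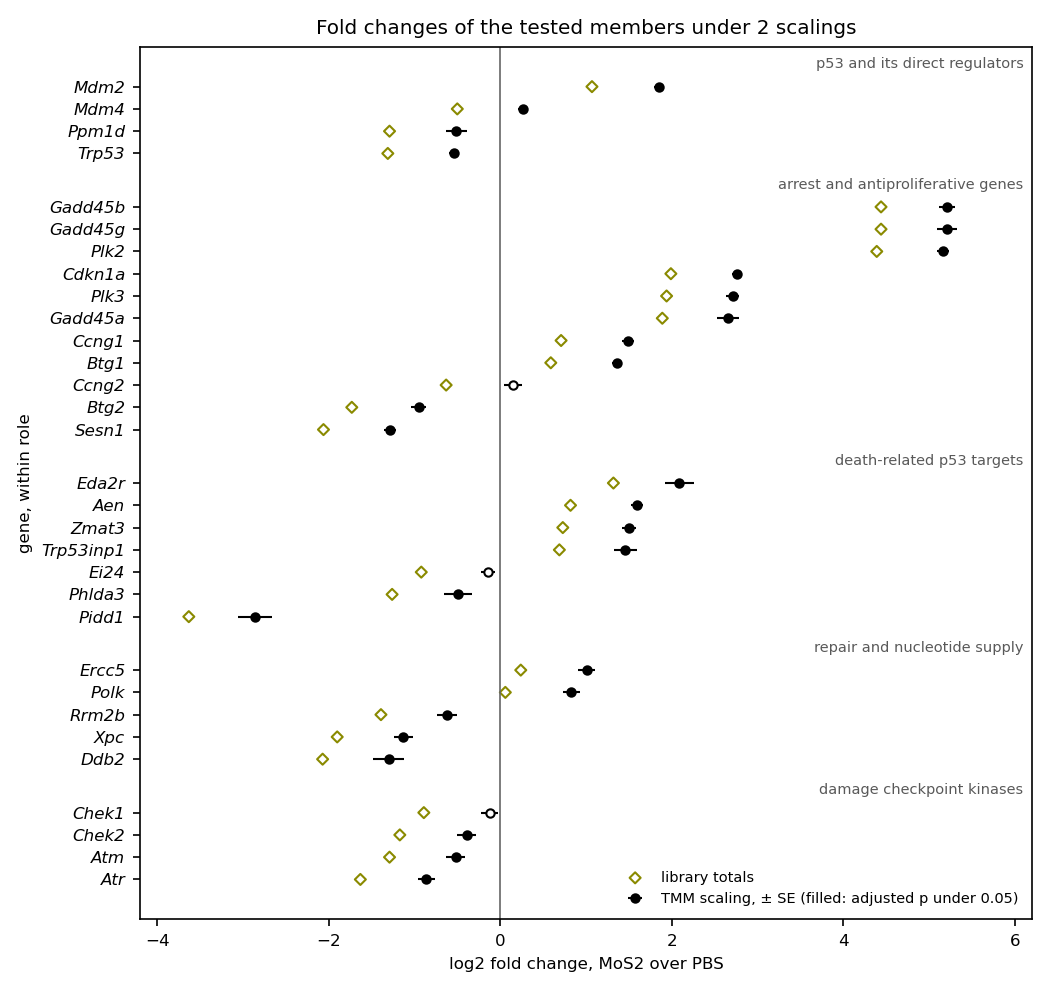
Log2 fold changes, MoS2 over PBS, of the 31 tested members by role. Circles with SE bars use TMM scaling, filled where the adjusted p was under 0.05, and diamonds use library totals, where Mdm4 and Ccng2 change sign. Gadd45b, Gadd45g and Plk2 are the furthest above 0 under both.

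Among the 7 tested death-related targets 4 rose by at least 2-fold, against 19.5% of all genes tested, Pidd1 and Phlda3 fell, Ei24 was not called and Perp was not tested. With library totals 4 were higher, 1 of them by at least 2-fold, and 3 lower. Eda2r, a death receptor-like gene of the TNF receptor family, had 2.34, 2.78 and 3.28 CPM with PBS and 11.2, 12.8 and 11.9 CPM with MoS2 (log2 fold change 2.09 ± 0.17, edgeR adjusted p = 4.8e-08). Aen, an exonuclease that aids apoptosis, had 34.8, 36.5 and 35.6 CPM with PBS and 106, 110.2 and 107 CPM with MoS2 (log2 fold change 1.6 ± 0.07). Zmat3, an RNA-binding p53 target, had 69.2, 81.0 and 83.5 CPM with PBS and 221, 236 and 204 CPM with MoS2 (log2 fold change 1.5 ± 0.08). These genes rose without overlap between the groups. Trp53inp1, which encodes a stress protein that promotes p53-dependent death, also rose, from 9.89, 7.90 and 8.40 CPM to 27.9, 21.6 and 22.6 CPM (log2 fold change 1.46 ± 0.13). The edgeR adjusted p of Aen, Zmat3 and Trp53inp1 was at most 1.6e-07.

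Pidd1 had the largest fall of all members. Its protein forms the PIDDosome, a platform that activates caspase-2. Pidd1 (ENSMUSG00000025507.13, GRCm38 chromosome 7, 141438113 to 141444025) had 321, 369 and 392 counts with PBS and 21, 38 and 25 with MoS2, which is 13.9, 16.0 and 17.6 CPM against 1.68, 3.08 and 1.83 CPM. The log2 fold change was -2.86 ± 0.20 (edgeR adjusted p = 1.2e-08), a 7.24-fold fall. It ran from -3.16 to -2.70 when single libraries were left out, MoS2 replicate 2 being the highest of its group.

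The other death-related members differed little between the groups or were near 0. Phlda3, which blocks Akt signalling, had 7.63, 6.78 and 6.25 CPM with PBS and 5.19, 4.70 and 4.83 CPM with MoS2 (log2 fold change -0.49 ± 0.16, edgeR adjusted p = 0.013). Ei24, an endoplasmic reticulum protein gene with roles in autophagy, had 66.0, 60.6 and 59.8 CPM with PBS and 51.9, 56.2 and 60.4 CPM with MoS2. Its groups overlapped and the difference did not pass (log2 fold change -0.14 ± 0.08, edgeR adjusted p = 0.10), although it was called lower at -0.92 with library totals. Perp, a junction protein gene of epithelia, had 2, 2 and 0 counts with PBS and none with MoS2, too few to compare.

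Repair genes split. Ddb2 and Xpc, which recognise damaged bases for nucleotide excision repair, fell, and so did Rrm2b, the p53-inducible subunit of ribonucleotide reductase that supplies nucleotides for repair. Ercc5, which cuts on one side of the damage, and Polk, a polymerase that copies past damaged bases, rose. Xpc had 19.3, 21.4 and 19.6 CPM with PBS and 8.94, 8.84 and 9.80 CPM with MoS2 (log2 fold change -1.13 ± 0.11, edgeR adjusted p = 4.7e-07). Ddb2 had 7.24, 8.69 and 8.40 CPM with PBS and 2.80, 3.32 and 3.73 CPM with MoS2 (log2 fold change -1.30 ± 0.18, edgeR adjusted p = 1.2e-05). Both lay lower in every MoS2 library. Ddb2 shares 652 exon bases with Acp2 on the opposite strand, which fell too (log2 fold change -2.16 ± 0.13), and no source used here gives the strand setting of the counting, so reads of both genes cannot be told apart there.

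Rrm2b had 18.4, 16.3 and 19.1 CPM with PBS and 11.7, 13.1 and 10.3 CPM with MoS2 (log2 fold change -0.62 ± 0.12, edgeR adjusted p = 3.6e-04). Ercc5 had 17.5, 16.2 and 15.5 CPM with PBS and 34.0, 29.8 and 35.3 CPM with MoS2 (log2 fold change 1.01 ± 0.10, edgeR adjusted p = 3.6e-07). Polk had 18.2, 20.6 and 21.3 CPM with PBS and 31.6, 39.1 and 36.0 CPM with MoS2 (log2 fold change 0.83 ± 0.10, edgeR adjusted p = 3.9e-06). The size of the rises depended on the scaling. With library totals Ercc5 had 0.24 (edgeR adjusted p = 0.032), and Polk 0.06 with no call (edgeR adjusted p = 0.61).

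None of the 4 damage checkpoint kinases was higher with MoS2, 3 were lower and Chek1 was not called. Over all genes tested 42.4% were lower. With library totals all 4 kinases were lower, under a scaling that put 67.7% of all genes tested lower. Atr (ENSMUSG00000032409.15, GRCm38 chromosome 9, 95857597 to 95951781), the kinase that answers stalled replication, had 38.5, 44.2 and 46.1 CPM with PBS and 26.4, 22.7 and 21.9 CPM with MoS2 (log2 fold change -0.86 ± 0.10, edgeR adjusted p = 2.2e-06). Atm (ENSMUSG00000034218.16, GRCm38 chromosome 9, 53439149 to 53536740), the kinase that answers double-strand breaks, had 71.5, 89.2 and 103.7 CPM with PBS, a wide spread, and 61.3, 66.0 and 57.4 CPM with MoS2. Its log2 fold change was -0.52 ± 0.11 (edgeR adjusted p = 7.2e-04). Both kinases have long transcripts, and with each library's trend on gene length removed Atr had -0.41 and Atm -0.16, the latter not called (edgeR adjusted p = 0.090).

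Chek2, the kinase downstream of Atm, had 17.4, 15.9 and 16.0 CPM with PBS and 12.5 CPM in each MoS2 library (log2 fold change -0.39 ± 0.11, edgeR adjusted p = 0.0038). Chek1, downstream of Atr and expressed mainly in dividing cells, had 23.0, 22.4 and 20.8 CPM with PBS and 20.5, 18.5 and 21.9 CPM with MoS2. These groups overlapped (log2 fold change -0.12 ± 0.10, edgeR adjusted p = 0.29), and Chek1 was called lower at -0.89 with library totals and had 0.13 with the length trend removed. Within libraries, the ratio of Atm to Atr per length went from 4.67 ± 0.450 to 5.98 ± 0.666, and Chek1 to Chek2 from 0.870 ± 0.0356 to 1.05 ± 0.0894 (SD, n = 3 each). Such ratios keep each library's trends on length and GC content. With both trends removed the log2 fold changes of Atm and Atr were close, at -0.31 and -0.29, while Chek1 had -0.01 and Chek2 -0.42.

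**Figure D3:**
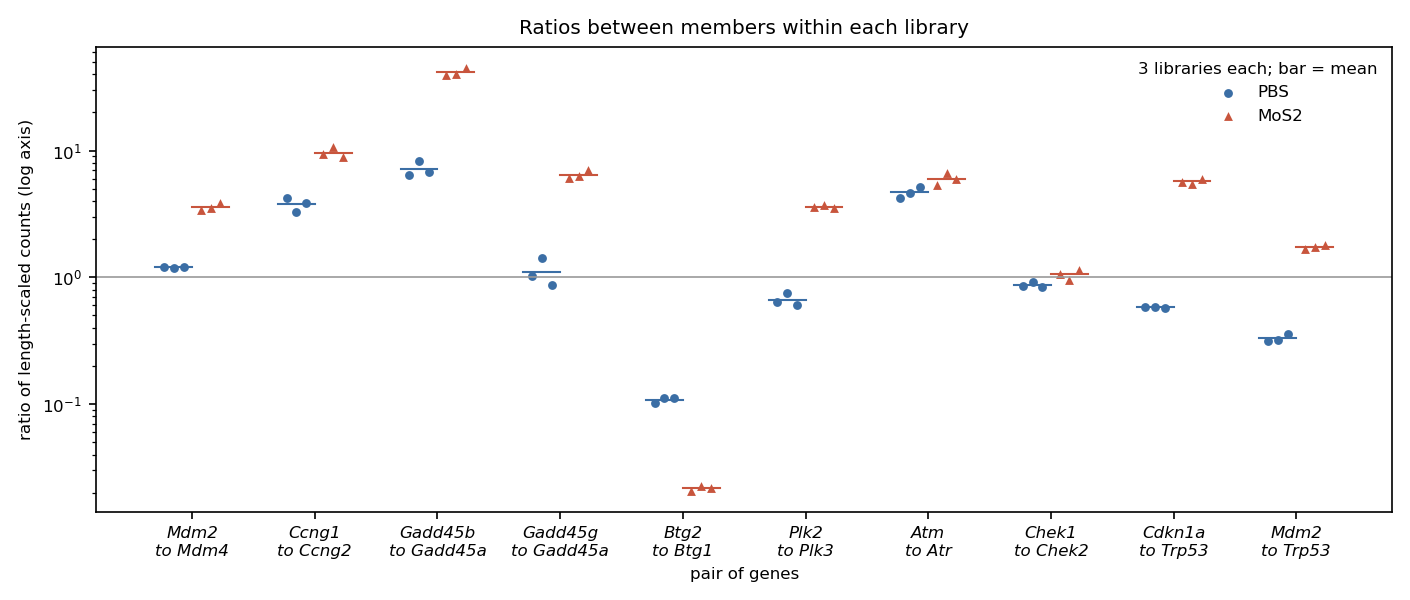
Ratios between pairs of members within each library, counts per base of gene length on a log axis, with circles for the 3 PBS and triangles for the 3 MoS2 libraries and bars for the means. Library scaling cancels in these ratios, and no pair overlaps between the groups. The share over other pairs of genes was not computed, and in CPM 81.9% of all tested genes did not overlap. The ratio of Plk2 to Plk3 crosses 1 per length, though not in CPM, while those of Atm to Atr and Chek1 to Chek2 lie close between the groups.

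Other genes of the pathway were taken from 4 further lists, also chosen with earlier results of these data known. Their counts are to be read beside those of all genes tested, of which 38.3% were higher and 42.4% lower, or 18% and 67.7% with library totals. Of 23 tested further p53 targets 11 rose and 11 fell, with a median log2 fold change of 0.01. By at least 2-fold, 10 (43.5%) rose and 3 (13%) fell, against 19.5% and 23.7% of all genes tested. With library totals 10 were higher and 13 lower. By at least 2-fold, 2 (8.7%) were then higher and 10 (43.5%) lower, against 7.08% and 45% of all genes tested. The death gene Bax, which opens the mitochondrial route of apoptosis, had 140, 110.1 and 120.4 CPM with PBS against 324, 298 and 349 CPM with MoS2 (log2 fold change 1.39 ± 0.09, edgeR adjusted p = 4.3e-09). With library totals the log2 fold change of Bax was 0.61. The spindle gene Psrc1 and the small ribosomal protein gene Rps27l rose by 2.32 ± 0.08 and 1.97 ± 0.09, the latter 1.11 with the length trend removed and 1.03 with the trends on length and GC content removed. Sesn2, like Sesn1, fell, from 53.9, 52.4 and 50.6 CPM to 19.3, 20.2 and 19.4 CPM (log2 fold change -1.42 ± 0.08, edgeR adjusted p = 1.2e-09).

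Among 13 tested modifiers and partners of p53, 4 rose and 5 fell, with a median log2 fold change of -0.06. Under library totals 2 were higher and 10 lower. The ubiquitin ligases Cop1 and Rchy1, which like Mdm2 mark p53 for degradation, had log2 fold changes of 0.99 ± 0.07 and 0.88 ± 0.09, but 0.22 and 0.11 with library totals, where Rchy1 was not called (edgeR adjusted p = 0.27). Rchy1 shares 680 exon bases with Thap6 on the other strand. Ppp1r13l, an inhibitor of p53, rose by 1.18 ± 0.11, or 1.78 with the trends on length and GC content removed, and Sirt1, which deacetylates p53, fell (log2 fold change -1.37 ± 0.15).

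Of the 26 damage sensors and checkpoint adaptors 16 (61.5%) fell, against 42.4% of all genes tested, and 10 (38.5%) fell by at least 2-fold, against 23.7%. Another 4 rose, and the median log2 fold change was -0.78, against -0.08 over all genes tested. With library totals 25 (96.2%) were lower, against 67.7%, and 1 was higher. The list was chosen with earlier results of these data known, so these shares describe it and are no test. H2afx, whose protein is the histone variant that Atm marks at breaks, had 120.1, 112 and 95.2 CPM with PBS and 18.9, 19.5 and 22.9 CPM with MoS2 (log2 fold change -2.41 ± 0.10, edgeR adjusted p = 8.9e-11). Mdc1, which binds that mark, Topbp1, which activates Atr, and Wee1, which delays mitosis, had log2 fold changes of -1.97 ± 0.10, -1.34 ± 0.06 and -1.76 ± 0.10.

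Of 17 nucleotide excision repair partners 9 rose and 4 fell, with a median log2 fold change of 0.21. Under library totals 4 were higher and 12 lower. Ercc1 and Ercc4 encode the paired subunits of one nuclease and moved in opposite directions. Ercc1 had 8.89, 9.86 and 8.58 CPM with PBS and 87.7, 81.8 and 87.1 CPM with MoS2 (log2 fold change 3.23 ± 0.09, edgeR adjusted p = 1.1e-12). Ercc4 had 22.1, 22.4 and 21.9 CPM with PBS and 7.03, 8.51 and 5.85 CPM with MoS2 (log2 fold change -1.64 ± 0.13, edgeR adjusted p = 4.9e-08). In neither gene did the groups overlap, and Ercc1 shares 106 exon bases with Cd3eap on the other strand. The ubiquitin ligase scaffolds Cul4a and Cul4b, of the complex that Ddb2 works in, also parted, at -1.56 ± 0.09 and 1.18 ± 0.08 on the log2 scale, and both directions held with library totals (-2.33 and 0.40).

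**Figure D4:**
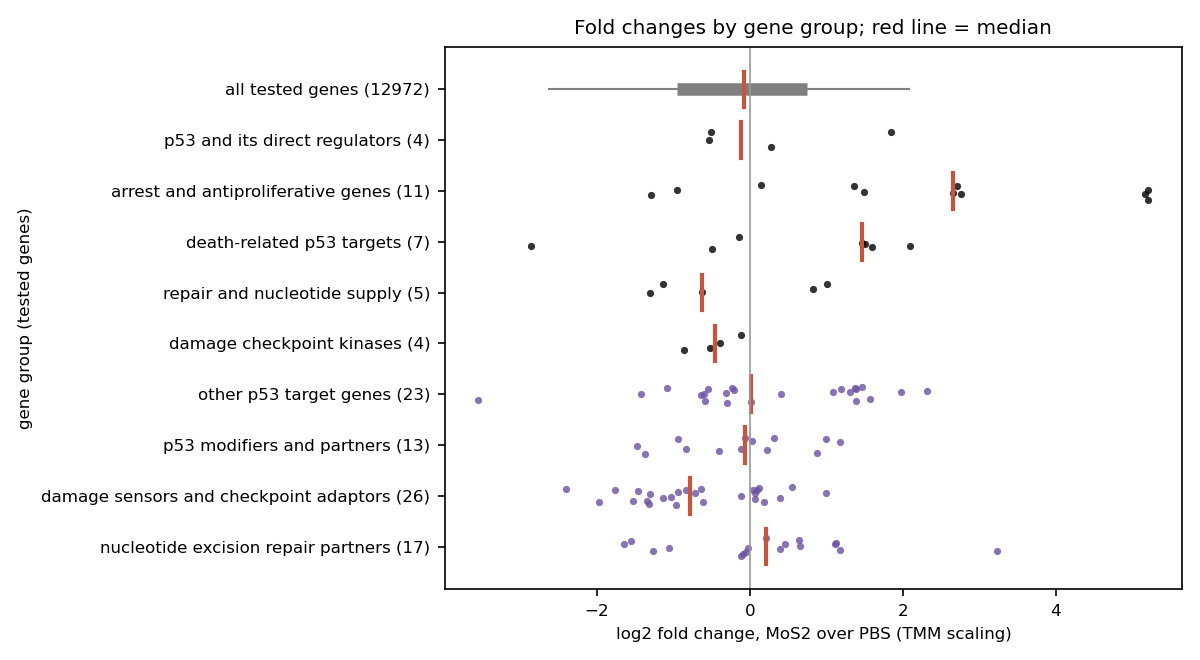
Log2 fold changes, MoS2 over PBS with TMM scaling, by gene group, with 1 point per tested gene and a red line at each median. For all 12972 tested genes the grey bar spans percentiles 25 to 75 and the thin line percentiles 5 to 95. The arrest genes have their median at 2.66 and the sensors and adaptors at -0.78, and with library totals these are 1.89 and -1.55.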

How the data were processed

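Gene counts of 6 libraries were used, 3 PBS and 3 MoS2, as the authors deposited them, the column letters c and M being read as control and MoS2. Per the submitters' processing notes, reads were handled with fastp 0.20.0, HISAT2 2.1.0 and featureCounts 1.6.1, and the notes name the human build GRCh38. All gene identifiers are of mouse, and 54349 of 55401 match GENCODE M21 (GRCm38) in version and coordinates. No source used here states whether the counting used strand, so reads of genes that overlap on opposite strands cannot be told apart.

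The PBS libraries held 17008020 to 17695883 counts each, the MoS2 libraries 15767618 to 18412762, and no 2 libraries were alike within sampling noise. Groups were compared with edgeR 4.0.16 in R 4.3.3 (filterByExpr with a minimum count of 10, TMM factors, quasi-likelihood F test on group, prior count 0.125), with Benjamini-Hochberg adjustment over 12972 genes and a threshold of 0.05. An SE is the log2 fold change divided by the square root of F, an approximation. Ratios within libraries divide counts per base of the deposited gene length and were tested by exact permutation. Scripts were tested on simulated counts in which few genes changed, as many up as down. That simulation had no shift in the most abundant genes, so it cannot speak to the choice of scaling. Alternatives were RLE, upper-quartile and library-total scaling, other filters, DESeq2 1.42.0, limma-voom (limma 3.58.1), a replicate block, trends on gene length (and GC content) removed, a threshold of 0.01 and each library left out.

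The members and lists were chosen with earlier results of these data known. Every member is named, and of each further list the 4 genes with the smallest adjusted p. Promoter sequences come from RefSeq (GRCm38.p6).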

Additional observations from a re-analysis of the deposited data

How the results depend on the processing

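Of the 28 called members, 24 kept their call and direction under every alternative run, the exceptions being Mdm4, Polk, Atm and Phlda3, the last not called at an adjusted p of 0.01 (0.013, edgeR). The scaling limits the results most: with library totals the members' median log2 fold change was -0.50, 8 members were at least 2-fold higher and 12 lower (7.08% and 45% of all genes tested), Mdm4 was -0.50 and Ccng2 -0.63, and 29 of 31 kept their direction. The median was 0.14 with upper-quartile factors, 0.13 without a low-count filter, 0.67 with the length trend removed, also with the replicate block, and 0.53 with the length and GC trends removed, an alternative chosen after seeing the data. Removing the length trend turned Ei24 to 0.13 and Chek1 to 0.13, in both cases also with the replicate block, and removing both trends turned Ei24 to 0.09. Why these values moved was not tested. Ei24 was called lower with upper-quartile factors (-0.28), without a filter (-0.23) and without MoS2 replicate 3 (-0.20), and Chek1 with upper-quartile factors (-0.25). Leaving out single libraries gave 16 members higher each time, 12 to 13 lower, 13 to 14 at least 2-fold higher, 4 at least 2-fold lower and a median of 0.23 to 0.31. At 149 counts over the PBS libraries for Gadd45g and 84 over the MoS2 libraries for Pidd1, counting error limits the precision of their folds.

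No shared deviation of same-numbered libraries was seen: their deviations correlated at -0.02, -0.01 and -0.14, against -0.12 to 0.15 for differently numbered libraries. These values cannot show whether the libraries were prepared in pairs. With the replicate block 16 members were higher, 12 lower, 14 and 4 by at least 2-fold, and the median was 0.27.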

Other observations

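Several genes of the further lists overlap a gene on the opposite strand that changed the other way, and they are named here after their values were seen. Other overlapping pairs changed the same way, such as Tap1 (-0.21) with Psmb9 (-0.50) and Xrcc6 (0.39) with Desi1 (0.92). The share of overlapping pairs that part was not computed. Over all genes tested 38.3% were higher and 42.4% lower. Ercc1, which shares 106 exon bases with Cd3eap, a subunit gene of RNA polymerase I, had a log2 fold change of 3.23 ± 0.09, and Cd3eap -1.64 ± 0.12 (edgeR adjusted p = 1.5e-08). Mre11a, the nuclease of the complex that senses double-strand breaks, had 0.99, and Ankrd49, which shares 154 exon bases with it, -2.24 ± 0.10 (edgeR adjusted p = 1.7e-10). Rchy1 had 0.88 ± 0.09 and Thap6, with 680 shared bases, -1.93 ± 0.29 (edgeR adjusted p = 3.2e-05). With library totals Rchy1 had 0.11, and no gene of the list that holds Mre11a was above 0.22. How the reads in the shared bases divide between the genes was not tested.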
